A study of Mus musculus with 6 samples.

Results

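Glycolysis, glycogen and lactate genes form a set of 40 mouse genes that carry glucose into the cell, split it to pyruvate, exchange pyruvate with lactate, store glucose as glycogen, and connect these steps to the response to low oxygen. They were chosen by name from this pathway knowledge, with earlier results of these data known. Their values were read from every probe set annotated to a single gene of that name. Such a probe set was found for 37 of the 40 genes, 74 probe sets in all, out of 18193 genes and 45037 probe sets. Of the 37, the brightest probe set of 35 passed the filter on dim signal and was tested, out of 12616 genes tested.

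Astrocytes, the glial cells that surround synapses and vessels, are known for high glycolytic activity and for holding most of the glycogen of the brain. Glucose enters through GLUT transporters, is trapped by hexokinase and runs through glycolysis to pyruvate, which either enters the mitochondrion through pyruvate dehydrogenase or is reduced to lactate and exported through monocarboxylate transporters. Lactate released by astrocytes can be taken up by neurons, and glycogen serves as a local reserve that feeds the same route. The transcription factor HIF-1 raises many of these genes when oxygen is low.

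RNA of cerebellar astrocytes was hybridised to 3 arrays and RNA of neocortical astrocytes to 3 others, and the comparison is between the 2 brain regions. The neocortical arrays carry the strain label ICR, and the cerebellar arrays carry no strain label, so if the strains differed, strain and region cannot be told apart. The labels name no age, treatment or culture condition, and they do not say whether arrays of a region came from separate animals or cultures, so the p-values reflect no more than the spread among these arrays, which may be technical. The signal of general astrocyte markers was high in both regions, for example 28570 in neocortical and 43870 in cerebellar astrocytes for the water channel gene Aqp4, and 57170 and 56250 for the connexin gene Gja1. Of 10 such markers, all tested, 1 (Aqp4) was higher in cerebellar astrocytes, 3 were lower and 6 did not pass. The lower ones were the glutamate transporter gene Slc1a3 (25240 to 14500, log2 -0.80), the glutamine synthetase gene Glul (25000 to 14270, -0.81) and the receptor gene Fgfr3 (5404 to 4056, -0.41). The filament gene Gfap had means of 36650 and 18260 and did not pass (log2 -1.11, adjusted p = 0.0649).

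Markers of other cells were summed over each list on each array. The fibroblast and meningeal sum ran from 59550 to 98440 on neocortical arrays and was 55200, 133400 and 229000 on cerebellar arrays 1 to 3, with 1 of 10 markers, the factor gene Twist1, higher. The microglia sum ran from 9808 to 28030 on neocortical and from 5679 to 31190 on cerebellar arrays, with none of 8 past the limma threshold and 0 at an unadjusted p under 0.05. For oligodendrocyte lineage markers it was 72220 to 83440 and 53750 to 81590 (1 higher and 2 lower of 6 tested). The largest part of this sum was Cnp (means 44540 and 51840), which did not pass. Olig1 (29610 to 9241, log2 -1.74) and Olig2 (3418 to 596.7, -2.58) were lower, and Mbp (185.4 to 991, 2.65) was higher. For ependymal and choroid plexus markers the sum was 26580 to 42000 and 17070 to 35380 (1 lower of 6 tested). Smooth muscle and pericyte markers summed to 175500 to 206200 and 130600 to 168200, which did not overlap, with 1 lower of 7 tested. Of neuron markers 6 of 10, and of endothelial markers 5 of 8, lay in both regions at or below 269.2, the highest value of 24 bacterial control probe sets, called the dim range here. Their sums were 9833 to 14080 and 7348 to 19490 for neurons (2 lower of 4 tested), and 2364 to 3072 and 1327 to 3113 for endothelium (1 lower of 3 tested). The lower neuron markers were Gad1 (625.4 to 157.4, log2 -1.83) and Syt1 (1763 to 1118, -0.665). The lower endothelial marker was Kdr (1269 to 422.2, -1.56). The neuron sum was mostly Stmn2 (means 9284 and 11040), which did not pass. RNA integrity was gauged from the Gapdh controls, whose 3′ over 5′ signal was 0.872, 0.865 and 0.883 on neocortical and 0.913, 1 and 1.07 on cerebellar arrays. The part of these values in the differences below was not tested.

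In cerebellar astrocytes 5 member genes were higher, 11 lower and 19 not past the threshold. This is 45.7% of the 35 tested, while 12.7% of all genes tested passed, 5.3% higher and 7.36% lower. The members were chosen with earlier results of these data known, so these shares are descriptive and were not compared by a test. Most members read well above the array medians, which were 284.5 to 361.2 before normalization. Neither these shares nor those of overlap below were matched for signal. The higher genes were Slc2a3, Ldha, Pgm5, Hif1a and Egln3, and the lower genes were Slc2a1, Hk1, Pfkm, Pfkp, Aldoc, Pfkfb3, Ldhb, Slc16a1, Pdk1, Pdk4 and Pygl. The values of the regions did not overlap in each of the 16, as in 99.9% of all called genes, and in 20 of the 35 members tested, while 34.3% of all genes tested had no overlap. For 5 of them the fold was at least 2. The median log2 difference, cerebellar minus neocortical, was -0.036 over the members tested and -0.015 over all genes tested. As 19 of the 35 did not pass, this median does not show the excess of lower over higher calls (11 against 5). The threshold was a limma p-value of 0.05 after Benjamini-Hochberg adjustment over 27022 probe sets. Without neocortical replicate 1, 2 or 3 the lower members numbered 6, 7 and 5, and the higher ones 5 each time, while with arrays scaled to one median 3 were higher and 14 lower. In bulk RNA, fewer cells that express a gene and less RNA of it per cell cannot be told apart.

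**Figure D1:**
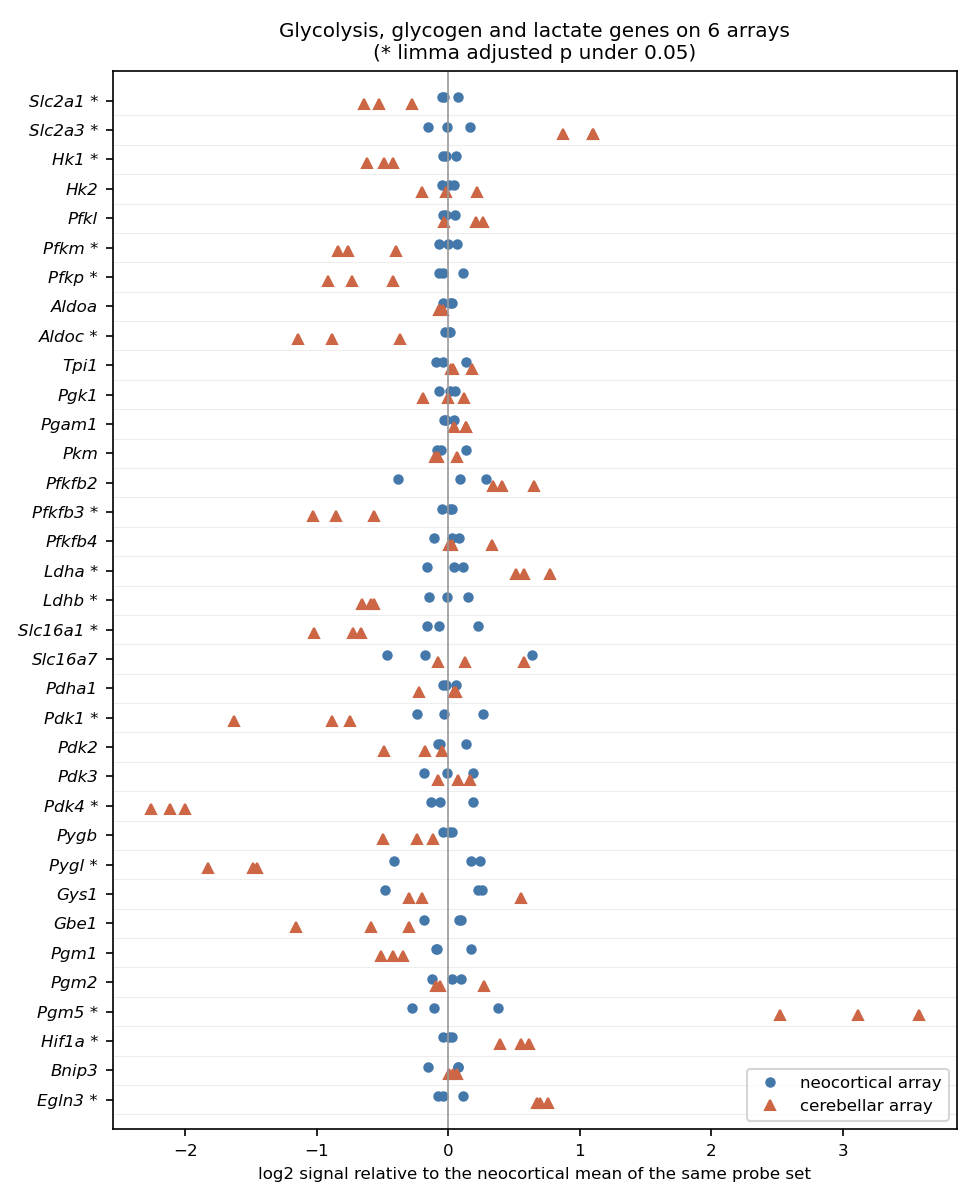
Log2 signal of each of the 35 tested member genes on 6 arrays, relative to the neocortical mean of the same probe set (circles, neocortical; triangles, cerebellar; asterisk, adjusted p under 0.05). The 16 genes with an asterisk have separate ranges, from Pgm5 (difference 3.08) to Pdk4 (-2.13), while genes such as Aldoa, Pgk1 and Bnip3 lie around 0.

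**Figure D2:**
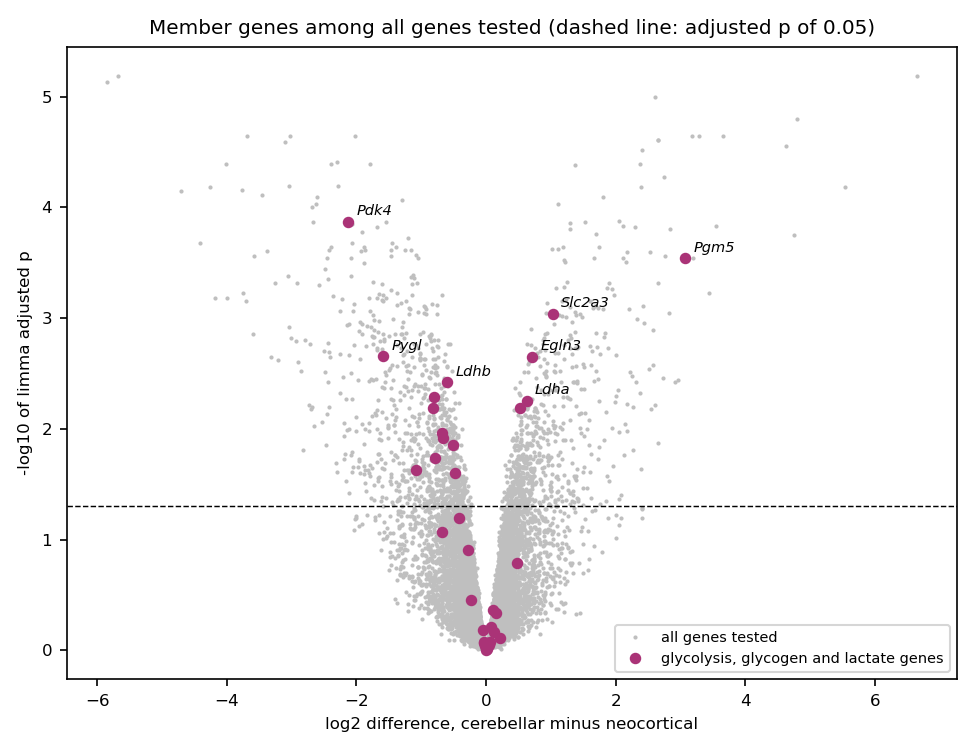
The -log10 of the limma adjusted p against the log2 difference for all 12616 genes tested (grey) and the member genes (purple), with the threshold as a dashed line. Pdk4 and Pgm5 lie farthest from 0 among the members, and 16 members lie above the line.

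Glucose transporters differed in opposite directions. Slc2a3, which encodes the high-affinity transporter GLUT3 best known from neurons, was higher in cerebellar astrocytes. Its normalized signal was 5040, 4553 and 5673 on neocortical arrays 1 to 3 and 9303, 10870 and 10880 on cerebellar arrays 1 to 3. Every cerebellar array thus read above every neocortical one, by 2.04-fold in the fit (log2 difference 1.03 ± 0.114, SE, n = 3 per region, adjusted p = 0.000911). A second probe set was higher too, at 3172 ± 108 against 1818 ± 23.5 (SD, n = 3 each), and another, near the dim range, did not pass (0.53, adjusted p = 0.39). The call rested on probe sets whose suffix marks possible cross-hybridisation or shared transcripts, and with these left out only that dim probe set remained.

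Slc2a1, which encodes GLUT1 of astrocytes and vessel endothelium, was lower. It read 11410, 12430 and 11550 on neocortical and 7562, 9722 and 8201 on cerebellar arrays, with no overlap, a 1.4-fold difference (log2 -0.48 ± 0.108, SE, adjusted p = 0.0249). Of its 3 probe sets 1 passed, and the others differed by -0.32 and -0.27. The call was lost under 9 of 16 alternatives. The adjusted p was 0.0767, 0.0945 and 0.085 without neocortical replicate 1, 2 or 3, 0.0502 without cerebellar replicate 1, 0.0666 without cerebellar replicate 3, 0.339 with suffixed probe sets left out, and 0.096 to 0.124 with no filter, no variance trend or the mean of its probe sets.

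Of the hexokinases, which trap glucose as glucose 6-phosphate, Hk1 was lower and Hk2 did not pass. Hk1, the form typical of brain, read 5530, 5627 and 5932 on neocortical and 4254, 3716 and 4062 on cerebellar arrays, and all cerebellar values were below all neocortical ones (1.42-fold, log2 -0.51 ± 0.1, SE, adjusted p = 0.014). Its dimmer probe set did not pass (-0.39, adjusted p = 0.164). Hk2, the form inducible by hypoxia and insulin, read 2117, 2169 and 2039 against 2457, 1835 and 2088, and its ranges overlapped (log2 difference 0.002, 95% interval -0.31 to 0.32). The Hk1 call was lost without neocortical replicate 1, 2 or 3, at adjusted p values of 0.0558, 0.0512 and 0.0762, and at 0.0566 when the variance was modelled without a trend.

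Of 9 tested glycolytic enzyme genes, 3 were lower and 6 did not pass. Phosphofructokinase, which commits sugar phosphate to glycolysis, has 3 subunit genes, of which Pfkm and Pfkp were lower and Pfkl did not pass. Pfkm, the muscle-type subunit, read 8310, 7947 and 8743 on neocortical and 4650, 6318 and 4924 on cerebellar arrays (1.59-fold, log2 -0.67 ± 0.126, SE, adjusted p = 0.0121). Pfkp, the platelet-type subunit, read 18250, 17790 and 20190 against 9929, 14020 and 11270 (1.61-fold, log2 -0.69 ± 0.127, SE, adjusted p = 0.0108). In both, cerebellar replicate 2 read highest of its group yet below every neocortical array. Pfkl, the liver-type subunit, had a difference of 0.15 with a 95% interval of -0.11 to 0.41. Of the 3 Pfkp probe sets tested 1 passed, the other two differing by -1.23 (adjusted p = 0.0524) and 0.47 (0.399), and the mean of them gave an adjusted p of 0.154. Leaving out neocortical replicate 3 gave 0.0594 for Pfkp and 0.0638 for Pfkm, and leaving out neocortical replicate 1 gave 0.0523 for Pfkm; with no filter or no variance trend both also missed the threshold (0.0583 to 0.0871).

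The aldolases split fructose 1,6-bisphosphate, and Aldoc, the brain form and a marker of astrocytes and of Purkinje cell stripes, was lower. It read 44180, 45300 and 44870 on neocortical arrays and 20320, 34810 and 24310 on cerebellar arrays. The neocortical values were tightly grouped, and the cerebellar ones all lower but spread, with replicate 2 highest (1.74-fold, log2 -0.8 ± 0.166, SE, adjusted p = 0.0183). Its second probe set was lower as well (1636 ± 151 to 849.5 ± 218, SD, n = 3 each). The adjusted p was 0.0626, 0.0679 and 0.0721 without neocortical replicate 1, 2 or 3, 0.0586 without cerebellar replicate 3, 0.138 without the filter and 0.0803 without the variance trend. Aldoa, the ubiquitous form, read 33990, 32300 and 33510 against 32400, 31700 and 31930, which overlap at the edge (log2 -0.06, 95% interval -0.21 to 0.1, adjusted p = 0.654). Of its 5 probe sets, 1 was lower (14870 ± 1380 to 11610 ± 630, SD, n = 3 each, adjusted p = 0.0458). Another differed the other way with no overlap and did not pass (4781 to 5932, log2 0.3, adjusted p = 0.199).

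The 4 tested member genes below aldolase did not pass. Triose phosphate isomerase (Tpi1), phosphoglycerate kinase (Pgk1), phosphoglycerate mutase (Pgam1) and pyruvate kinase (Pkm) had differences of 0.08, -0.02, 0.10 and -0.04. Their 95% intervals together ran from -0.25 to 0.28. Pkm, which makes pyruvate, read 16490, 14120 and 14420 on neocortical and 15660, 14220 and 14000 on cerebellar arrays. Gapdh, the dehydrogenase of the middle of the pathway, had single-gene probe sets only among the array's control probe sets, which were read as deposited. Its 3′ control read 56563, 51821 and 51430 against 52804, 56564 and 54178, which overlap (two-sided exact permutation p = 0.5), and its 5′ control 64877, 59901 and 58221 against 57834, 56402 and 50565, which do not (exact permutation p = 0.1, the smallest that 3 against 3 allow). Eno1 (enolase) and Gpi1 (glucose phosphate isomerase) had no single-gene probe set in the annotation and were not analysed here.

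The PFKFB enzymes set the level of fructose 2,6-bisphosphate, the activator of phosphofructokinase, and Pfkfb3, the form with the strongest kinase activity, was lower. Its signal was 4128, 4316 and 4358 on neocortical and 2885, 2368 and 2096 on cerebellar arrays, with a wide gap between the groups (1.76-fold, log2 -0.81 ± 0.134, SE, adjusted p = 0.00648). The call held in all 16 alternatives (adjusted p 0.00237 to 0.048). A dimmer probe set differed by -0.93 and did not pass (adjusted p = 0.109). Pfkfb2 and Pfkfb4 did not pass, with differences of 0.47 (adjusted p = 0.163) and 0.12 (0.68), and all 3 cerebellar arrays of Pfkfb2 read above the neocortical ones (1497 to 1860 against 908.8 to 1439).

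Lactate dehydrogenase is a tetramer of LDHA, the form favoured in tissues that make lactate, and LDHB, the form favoured in tissues that consume it, and these genes differed in opposite directions. Ldha was higher in cerebellar astrocytes, at 26420, 21910 and 25280 on neocortical and 41930, 35060 and 36530 on cerebellar arrays. The lowest cerebellar array exceeded the highest neocortical one (1.54-fold, log2 0.63 ± 0.1, SE, adjusted p = 0.00556). Ldhb was lower, at 35180, 32050 and 39420 against 23930, 23590 and 22470, again with no overlap (1.52-fold, log2 -0.6 ± 0.09, SE, adjusted p = 0.00381). All 4 Ldhb probe sets passed, with differences of -0.77 to -0.58, and the call held in the 15 alternatives that gave a value. All of them carry a suffix, so Ldhb had no value with suffixed probe sets left out, and neither had Ldha. The Ldha call was kept without any 1 array and was lost when arrays were scaled to one median (0.46, adjusted p = 0.0822), with no filter (0.0599) and without the variance trend (0.0522).

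The log2 signal of the Ldha probe set minus that of the Ldhb probe set was -0.41, -0.55 and -0.64 on neocortical arrays and 0.81, 0.57 and 0.7 on cerebellar arrays. The balance of the 2 probe sets thus shifted by 1.23, or 2.34-fold, towards Ldha. The arrays of the regions did not overlap (two-sided exact permutation p = 0.1, the smallest possible, and 0.167 adjusted over 5 pairs). As Ldha was higher and Ldhb lower, each without overlap, this lack of overlap and its p-value were fixed by those differences. They add no further support. Within an array the balance does not depend on a common scaling. It shows unequal change of the genes, not which transcript is more abundant. Of the other pairs, Aldoc minus Aldoa shifted by -0.74 and Hk2 minus Hk1 by 0.51, both with no overlap (exact permutation p = 0.1, adjusted 0.167, each). Pfkp minus Pfkm differed by -0.02 with overlap (exact permutation p = 0.6). Slc16a3 minus Slc16a1 differed by 1.3 (exact permutation p = 0.2, adjusted 0.25), with Slc16a3 in the dim range.

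**Figure D3:**
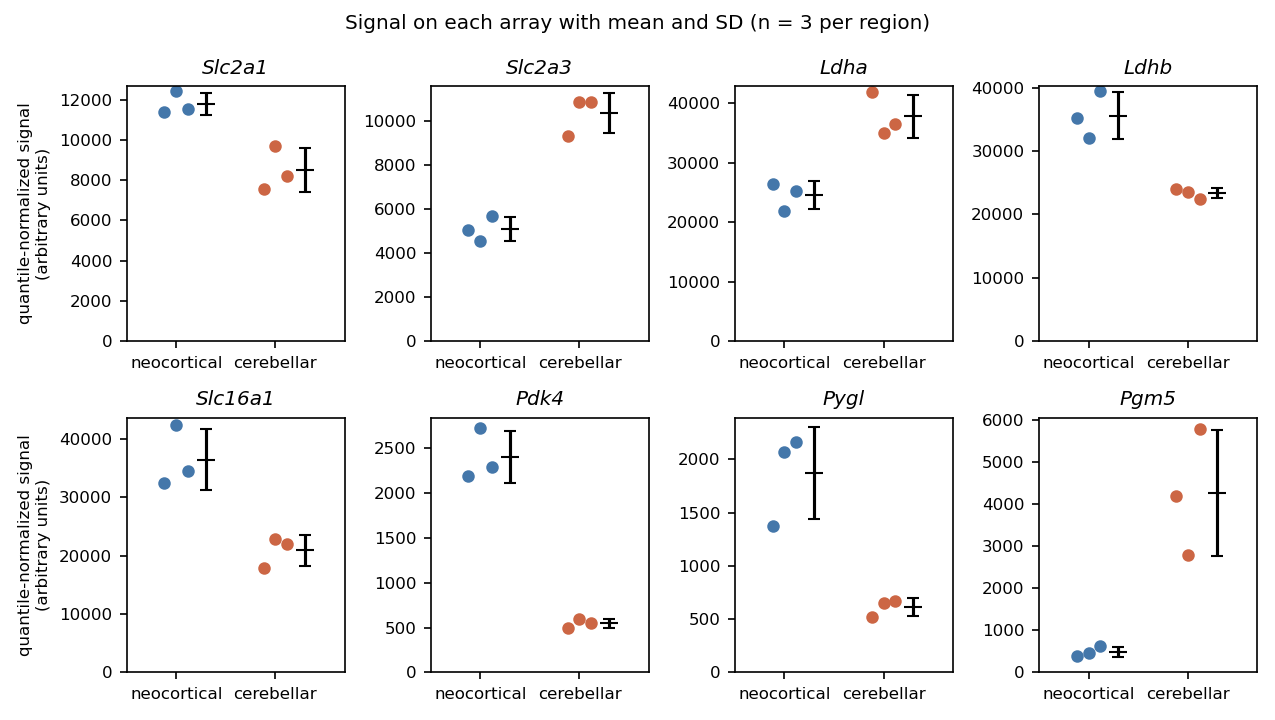
Quantile-normalized signal in arbitrary units, from 0, of 8 member genes on each array (points; mean and SD beside them, n = 3 per region). Slc2a3, Ldha and Pgm5 read higher and Slc2a1, Ldhb, Slc16a1, Pdk4 and Pygl lower on every cerebellar array than on any neocortical one, for example Ldha at 35060 to 41930 against 21910 to 26420.

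Monocarboxylate transporters carry lactate and pyruvate across the membrane, and Slc16a1, which encodes MCT1 of astrocytes and endothelium, was lower. It read 32420, 42400 and 34440 on neocortical and 17860, 22840 and 21920 on cerebellar arrays, with no overlap (1.74-fold, log2 -0.8 ± 0.126, SE, adjusted p = 0.00516). The call held without any 1 array and was lost with no filter on dim probe sets (adjusted p = 0.0698). Slc16a7 (MCT2, the form of neurons) was in the dim range in both regions, at 214.8 ± 90 and 239.9 ± 57.4 (SD, n = 3 each), and did not pass (adjusted p = 0.779). Slc16a3 (MCT4, the export form of glycolytic cells) was too dim to be tested, at 42.78, 300.6 and 98.28 against 36.08, 332.4 and 250.2.

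Promoter sequence is shown for Ldha, which was higher, and for Ldhb and Slc16a1, which were lower. ACGTG, 1 form of the core of the HIF response element, was searched on either strand in the 250 bases before each annotated start. The other form, GCGTG, was not counted, so a window without a match can still hold it, as that of Ldhb does. The sequences are from RefSeq on GRCm38.p6 and were matched by symbol, which gave 54 windows for 38 members. Capitals mark ACGTG or its complement CACGT, and overlapping matches merge into CACGTG, which is also the E-box. Of all 32851 promoter windows of that length, 16.6% held the motif and 0.134% held 5 or more matches. Ldha has 2 windows, of which the upstream one at chr7:46845554-46845803 (plus strand) holds 5 matches and the other none. Ldhb at chr6:142507958-142508207 (minus strand) holds none, and Slc16a1 at chr3:104638414-104638663 (plus strand) holds 2.
Ldha: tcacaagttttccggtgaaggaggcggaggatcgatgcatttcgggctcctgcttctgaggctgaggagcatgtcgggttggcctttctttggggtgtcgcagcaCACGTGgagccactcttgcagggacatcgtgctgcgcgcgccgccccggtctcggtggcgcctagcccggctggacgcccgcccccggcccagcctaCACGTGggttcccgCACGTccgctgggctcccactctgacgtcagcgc
Ldhb: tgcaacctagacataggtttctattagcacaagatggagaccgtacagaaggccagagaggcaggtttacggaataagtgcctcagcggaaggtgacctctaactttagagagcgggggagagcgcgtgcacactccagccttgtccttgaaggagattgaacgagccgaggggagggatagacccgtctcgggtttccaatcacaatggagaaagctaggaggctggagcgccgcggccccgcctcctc
Slc16a1: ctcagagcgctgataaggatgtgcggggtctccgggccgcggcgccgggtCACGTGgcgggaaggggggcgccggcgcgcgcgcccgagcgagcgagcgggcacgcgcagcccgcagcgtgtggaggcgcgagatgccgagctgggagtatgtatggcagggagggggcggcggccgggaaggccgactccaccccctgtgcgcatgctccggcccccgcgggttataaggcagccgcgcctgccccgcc

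Pyruvate dehydrogenase kinases switch off entry of pyruvate into the mitochondrion, and 2 of 4 were lower. Pdk4, the form induced by fasting and fatty acids, had the largest difference among the lower members. Its signal was 2187, 2731 and 2296 on neocortical and 499.6, 597.3 and 552.1 on cerebellar arrays, so that the highest cerebellar value was far below the lowest neocortical one (4.37-fold, log2 -2.13 ± 0.158, SE, adjusted p = 0.000135). The difference stayed between -2.21 and -2.02 in all 16 alternatives, with adjusted p of at most 0.00994. Pdk1, the form induced by HIF-1, read 2088, 2574 and 1814 against 1274, 691.6 and 1157 (2.12-fold, log2 -1.09 ± 0.241, SE, adjusted p = 0.0234), and 2 of its 3 tested probe sets passed. The Pdk1 call was lost without neocortical replicate 1, 2 or 3 (adjusted p = 0.0767, 0.0973 and 0.0543), with no filter (0.135) and without the variance trend (0.0702).

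Pdk2 and Pdk3 did not pass, with differences of -0.24 (95% interval -0.57 to 0.1) and 0.05 (-0.26 to 0.36). Pdha1, the subunit of pyruvate dehydrogenase that the kinases phosphorylate, read 15250, 15480 and 16310 against 13480, 16200 and 16310 with overlap (log2 -0.04, adjusted p = 0.847). Its second probe set was lower, at 6544, 6276 and 6652 against 5445, 4785 and 3907 (1.39-fold, adjusted p = 0.048), so the 2 probe sets of this gene disagree.

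Glycogen phosphorylases release glucose 1-phosphate from glycogen, and Pygl, the liver form, was lower. It read 1379, 2074 and 2168 on neocortical and 517.9, 655.1 and 671.9 on cerebellar arrays, and the groups did not overlap (3.01-fold, log2 -1.59 ± 0.212, SE, adjusted p = 0.00222). The call held in all 16 alternatives, with differences of -1.78 to -1.47. Pygb, the brain form, read 18430, 18970 and 19310 against 13380, 17470 and 16030. Each cerebellar value was below each neocortical one, yet the difference did not pass (1.22-fold, log2 -0.28, adjusted p = 0.123), and it passed when arrays were scaled to one median (0.0349). Pygm, the muscle form, lay in the dim range in both regions (192.9 ± 32.1 and 145.3 ± 119, SD, n = 3 each) and was not tested.

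Gys1, glycogen synthase, read 514.1, 839.2 and 859.1 on neocortical and 624.7, 1058 and 583.5 on cerebellar arrays, with full overlap and a wide interval (log2 0.02, 95% interval -0.64 to 0.68). Gbe1, the branching enzyme, read 1452, 1748 and 1761 against 739.7, 1343 and 1095, with no overlap, and did not pass (1.6-fold, log2 -0.68 ± 0.221, SE, adjusted p = 0.0861). With the replicate number as a block it passed (adjusted p = 0.0362), as it did without cerebellar replicate 2 (0.0411) and with arrays scaled to one median (0.0402). No other member changed its call with the block.

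Phosphoglucomutases interconvert glucose 1-phosphate and glucose 6-phosphate, and 1 of 3, Pgm5, was higher. Pgm5 encodes aciculin, a relative of the enzyme that lacks its activity and sits at cell adhesion sites of muscle, so its place in the set rests on its name. Its signal was 399.3, 449.9 and 629.2 on neocortical and 4197, 2787 and 5779 on cerebellar arrays, the largest difference among the members (8.43-fold, log2 3.08 ± 0.272, SE, adjusted p = 0.000289). The call held in all 16 alternatives, with differences of 2.86 to 3.36. Skeletal muscle markers moved with it through 1 gene. Their sum was 1267 to 1592 on neocortical and 6017 to 9251 on cerebellar arrays, and without the myosin gene Myh8 it was 1217 to 1585 and 1427 to 1615. Of the 12 markers 10 were in the dim range in both regions, and among smooth muscle markers Acta2 was lower and Tagln and Cnn1 did not pass. Desmin (Des), a filament gene of muscle, had means of 94.78 and 395.8 and did not pass (log2 difference 2.0, adjusted p = 0.06).

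Pgm1 and Pgm2 (named by the gene identifiers of the annotation, since the mouse symbols were once exchanged) did not pass. Pgm1 read 2642, 2649 and 3167 against 2105, 1976 and 2208 (1.34-fold, log2 -0.42, adjusted p = 0.0638), with no overlap, and passed only with arrays scaled to one median (0.0257). Its second probe set, near the dim range, differed the other way with overlap (197.7 to 281.4, log2 0.46, adjusted p = 0.454). Pgm2 differed by 0.04 (95% interval -0.27 to 0.34).

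Of the hypoxia genes, Hif1a and Egln3 were higher and Bnip3 did not pass. Hif1a, the oxygen-regulated subunit of HIF-1, read 12270, 12640 and 12820 on neocortical and 16520, 18450 and 19280 on cerebellar arrays, with a narrow neocortical group well below the cerebellar one (1.44-fold, log2 0.52 ± 0.086, SE, adjusted p = 0.00643). Of 3 tested probe sets 1 passed, and the other two were 0.56 (adjusted p = 0.0561) and 0.27 (0.397). Scaling arrays to one median ended the call (0.3, adjusted p = 0.141), as did leaving out suffixed probe sets (0.0561) and the variance trend (0.0551). Egln3, the prolyl hydroxylase PHD3 that marks HIF for degradation and is itself a HIF target, read 4988, 4373 and 4499 against 7813, 7505 and 7369, and the groups were well apart (1.64-fold, log2 0.71 ± 0.095, SE, adjusted p = 0.00223). Both of its probe sets passed, and the call held in all 16 alternatives. Bnip3, a mitochondrial HIF target, had a difference of 0.04 with a 95% interval of -0.18 to 0.26.

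The promoter windows of both higher genes hold the same motif, and they are shown beside those of Ldha and Slc16a1 because the motif occurs in members of either direction. Hif1a at chr12:73907617-73907866 (plus strand) holds 3 matches and Egln3 at chr12:54203875-54204124 (minus strand) holds 1. Counting a member once if any of its windows holds the motif, these were 3 of 4 higher, 5 of 11 lower and 12 of 18 members that did not pass. No such count per gene was made over all genes. Counted by window, the motif was in 26 of 54 member windows, beside 16.6% of all windows. A match describes letters and is not evidence of binding.
Hif1a: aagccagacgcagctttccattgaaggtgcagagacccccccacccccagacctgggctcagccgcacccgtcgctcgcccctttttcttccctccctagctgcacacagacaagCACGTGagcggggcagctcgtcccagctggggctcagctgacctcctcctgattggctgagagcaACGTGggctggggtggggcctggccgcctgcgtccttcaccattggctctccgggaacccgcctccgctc
Egln3: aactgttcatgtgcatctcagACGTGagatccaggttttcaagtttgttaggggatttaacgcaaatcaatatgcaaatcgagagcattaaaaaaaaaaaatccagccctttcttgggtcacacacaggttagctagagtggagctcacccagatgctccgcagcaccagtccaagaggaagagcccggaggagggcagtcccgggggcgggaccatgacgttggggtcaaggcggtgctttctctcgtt

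Within the lower members the cerebellar arrays were unequal. Cerebellar replicate 1 lay farthest from the neocortical mean in 7 of the 11, and cerebellar replicate 2 lay closest in 6, among them Slc2a1, Pfkm, Pfkp, Aldoc, Slc16a1 and Pdk4. The astrocyte marker sum was 143200, 198700 and 208400 on cerebellar arrays 1 to 3, lowest on replicate 1, against 181600 to 226900 on neocortical arrays. Among cerebellar arrays, replicate 1 also had the lowest microglia (5679), fibroblast and meningeal (55200) and ependymal and choroid plexus (17070) sums. The same held for the oligodendrocyte lineage (53750) and endothelial (1327) sums. Its neuron (19490) and smooth muscle and pericyte (168200) sums were the highest. Whether these sums bear on the members was not tested. Set against the neocortical mean, the members had a median of -0.05, -0.08 and -0.1 on these arrays.

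Other genes of the same pathways were read from lists of 117 genes, of which 97 were tested. In cerebellar astrocytes 7 were higher and 14 lower, which is 21.6% of those tested, beside 12.7% of all genes tested. These lists too were chosen with earlier results of these data known. With arrays scaled to one median 1 was higher and 17 were lower. Of 24 tested genes of the glycogen list, which includes AMP-activated kinase subunits, 6 were lower and 1 was higher (29.2%). Ppp1r3c, the scaffold that brings protein phosphatase to glycogen, was 3.43-fold lower (10550 ± 1350 to 3247 ± 1370, SD, n = 3 each, adjusted p = 0.00357). Ugp2, which makes the UDP-glucose used by glycogen synthase, was 1.57-fold lower with all 5 probe sets past the threshold, and the phosphorylase kinase subunit gene Phkb was 1.54-fold lower. Of the AMP-activated kinase subunits, Prkag2 was 2.03-fold lower and Prkaa1 1.42-fold lower (limma adjusted p = 0.0455). Prkab2 was 1.47-fold higher, with 1 of 3 probe sets past the threshold (limma adjusted p = 0.0427). The remaining lower gene of the list was Gaa (1.4-fold, limma adjusted p = 0.0413).

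Genes of pyruvate handling had 2 of 21 higher and 2 lower (19.0%). Pcx, the pyruvate carboxylase by which astrocytes replenish the citric acid cycle, was 2.03-fold lower (8257 ± 653 to 4084 ± 544, SD, n = 3 each, adjusted p = 0.00139), and Dlat, the acetyltransferase of pyruvate dehydrogenase, was 1.49-fold lower. Emb (embigin), a chaperone of monocarboxylate transporters, was 2.12-fold higher, and Pdp1, the phosphatase that reverses the kinases, 1.37-fold higher. Dlat passed in 2 of 3 probe sets tested and Pdp1 in 1 of 2. Of 18 other glucose transport and glycolysis genes, the enolase gene Eno2 was 1.52-fold higher and the transporter gene Slc2a10 1.69-fold lower. This share of 11.1% is below the 12.7% of all genes. Slc2a10 passed in 1 of 2 probe sets (limma adjusted p = 0.0424). Of 9 pentose phosphate genes, Pgd was 1.44-fold higher and the transketolase gene Tkt 1.43-fold lower (22.2%). Pgd passed in 2 of 4 probe sets (limma adjusted p = 0.0436) and Tkt in 2 of 3.

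Of 25 other hypoxia genes, 2 were higher and 4 were lower (24.0%). The higher ones were Cited2 (1.47-fold), an antagonist of HIF at its coactivator, and the heme oxygenase gene Hmox1 (1.44-fold). The lower ones were the adenylate kinase gene Ak4 (1.77-fold), the repressor gene Bhlhe40 (1.75-fold), the growth factor gene Vegfa (1.64-fold) and the prolyl hydroxylase gene Egln1 (1.44-fold). Cited2, Vegfa and Egln1 each passed in 1 of 2 probe sets tested. Without neocortical replicate 1, 2 or 3 the counts over all these lists were 1, 0 and 0 higher by limma (8 each at an unadjusted p under 0.05) and 9, 7 and 6 lower, and without cerebellar replicate 1, 2 or 3 the higher counts were 4, 4 and 3.

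**Figure D4:**
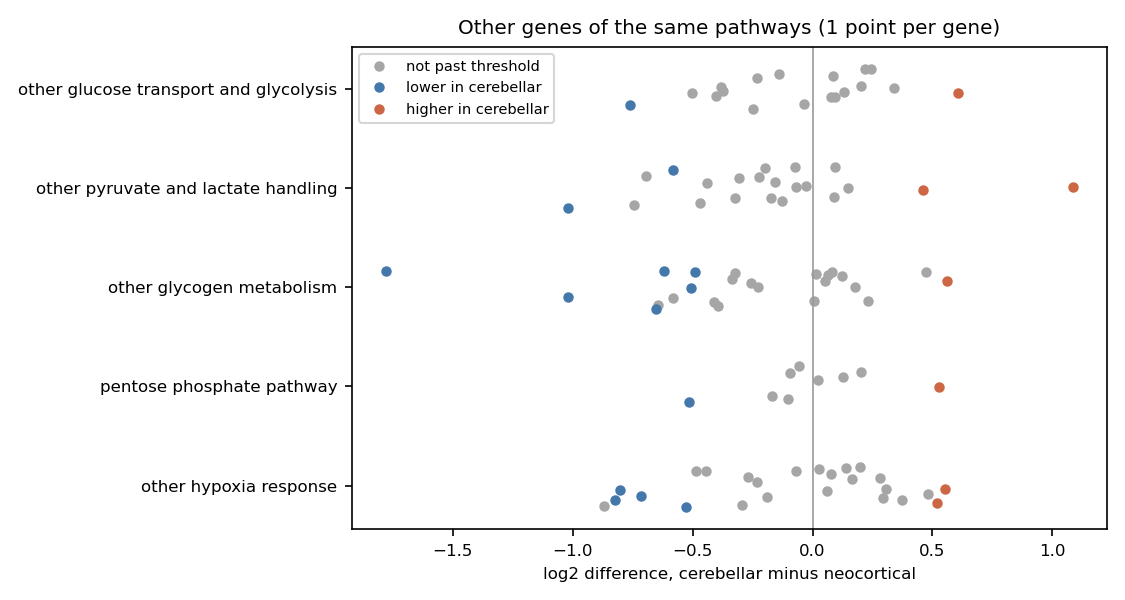
Log2 difference, cerebellar minus neocortical, of each tested gene of the 5 other pathway lists (1 point per gene; vertical scatter within a list has no meaning). Genes of the glycogen list past the threshold lie mostly left of 0, with Ppp1r3c farthest at -1.78. The hypoxia list has points past the threshold on both sides.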

How the data were processed

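The authors deposited 1 linear intensity per probe set and array for 3 cerebellar and 3 neocortical arrays of astrocyte RNA. How they were summarised is not given in the sources used here. This table holds 45101 probe sets, of which 64 are controls. Array medians of the other 45037 ran from 284.5 to 361.2, so they were quantile normalized, raised to a floor of 62.16 (20th percentile) and log2-transformed. No called member had an array at the floor. The 27022 probe sets at or above the 40th percentile of mean signal were tested with limma 3.58.1 in R 4.3.3 (eBayes with trend, two-sided, Benjamini-Hochberg, threshold 0.05). Single values had exact permutation tests in Python 3.11.15. The number of arrays, 3 per region, limits the precision.

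Gene symbols came from the platform annotation (1 symbol for 34945 probe sets, several for 932, none for 9160), updated through Entrez identifiers to GRCm38.p6. The brightest probe set represents a gene. The members and lists were chosen with earlier results of these data known. Every member is accounted for. Values on each array are given for members past the threshold by any probe set and for a fixed set of key enzymes. From each other list up to 4 genes per direction of largest difference are named, and from the glycogen list all genes past the threshold. The fit was tested on simulated data.

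The arrays share the numbers 1 to 3. After subtraction of group means, arrays of one number correlated across regions at 0.18, 0.188 and 0.101, and arrays of different number at -0.182 to 0.0225. The labels do not say what a number stands for. A fit with the number as a block was therefore run as an alternative.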

Additional observations from a re-analysis of the deposited data

How the results depend on the processing

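Over 16 alternatives no called member changed direction, 6 of the 16 kept the call in every alternative that gave them a value and 10 lost it at least once; 3 uncalled members gained one. Against 5 higher and 11 lower members, median scaling left 3 higher, suffixed probe sets left out 2 higher, no variance trend 3 higher and 5 lower, and no filter 5 lower. Without suffixed probe sets Hk1, Ldha and Ldhb had no value. Leaving out 1 array gave 5 higher each time and 5 to 12 lower. Median scaling shifted the median of all tested probe sets from 0.009 to -0.096, and that of the members from -0.036 to -0.198 (-0.0802 to -0.00488 leaving out 1 array). For the other pathway genes (7 higher, 14 lower), median scaling gave 1 higher, averaging probe sets per gene 4 higher, and no filter or no variance trend 0 higher (8 at an unadjusted limma p under 0.05, each) and 5 lower each; leaving out 1 array gave 0 to 4 higher and 6 to 12 lower. The Pfkp minus Pfkm balance turned to 0.182 with the mean of probe sets and ran from -0.044 to 0.008 leaving out 1 array. With the replicate block, Gbe1 passed (adjusted p = 0.0362) and no other member's call changed, at 5 higher and 12 lower members. The causes were not tested. Dim signal limits Slc16a3, Slc16a7 and Pygm.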
